A study of Mus musculus with 4 samples.

Results

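The nuclear pore is the channel through which proteins and RNA pass between nucleus and cytoplasm, and 31 genes for its subunits and for factors that carry mRNA through it were followed here, of 21887 protein-coding genes. The genes were chosen by name and not by their measured values, though earlier results of these data were known. They fall into 7 groups by role. A gene was credited with every accessibility peak whose summit lay inside its RefSeq span (mm10) or within 5 kb of it. The assay was ATAC-seq, where a transposase inserts sequencing adapters into open chromatin, and the cells were 10T1/2, an established mouse embryonic fibroblast line. There were 2 libraries of wild-type cells and 2 of Ranbp2 knockout cells, and no treatment or time point is labelled. The knockout cells were a single clone obtained with a CRISPR-Cas9 guide against Ranbp2, a nucleoporin of the cytoplasmic pore filaments, and the labels do not say whether the wild-type cells were themselves cloned. Any difference between genotypes may therefore belong to this clone, and the labels do not name separate cultures, so the spread between libraries may be technical.

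The pore is built from rings of repeated subcomplexes. The Y complex forms the outer rings on both faces, the inner ring lines the membrane pore and anchors the central channel, and membrane nucleoporins fix the structure to the nuclear envelope. Flexible FG nucleoporins fill the channel, a basket reaches into the nucleus, and filaments on the cytoplasmic face hold the machinery that strips export factors from mRNA. The heterodimer of Nxf1 and Nxt1 is the main carrier of bulk mRNA. Ranbp2 belongs to the cytoplasmic filaments and is not among the 31 genes.

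The files hold peaks and not reads, so depth is unknown. The lists hold 33721 and 18511 peaks in wild-type replicates 1 and 2 and 13877 and 24292 in knockout replicates 1 and 2, and a peak missing from a short list may only lie under its threshold. Each peak is described by the deposited fold over local background and by its percentile in its own list, where 100 is the peak with the highest −log10 q. Because a long list has a longer tail of weak peaks and so raises the percentile of every strong one, each comparison was repeated with all lists reduced to their 13877 best peaks, called equal length below. With 2 libraries against 2, the smallest two-sided exact permutation p is 0.333, so ranks were not tested gene by gene. The authors' own differential regions, made from these libraries, are given further on. Genotypes are described as overlapping or not, where not overlapping means that the pair of knockout values lies entirely above or entirely below the pair of wild-type values. Ranbp2 itself had a start-site peak in every library, with folds of 18.1 and 13 in wild-type and 8.22 and 14.4 in knockout libraries, and a start-site peak does not check the edit. At start sites, 11, 7, 4 and 5 of 14 fibroblast marker genes had a peak in wild-type replicates 1 and 2 and knockout replicates 1 and 2, against 43.9%, 35.8%, 28.5% and 37.5% of all genes. Of 30 epithelial, endothelial, immune, neural and pluripotency markers, 1 had one, a neural marker in wild-type replicate 1. Within 5 kb of the span, 13, 11, 8 and 12 of the 14 fibroblast markers had a peak, and 0 to 3 of the 6 genes in each of the other marker lists did (60.3%, 49.3%, 41.2% and 53.0% of all genes).

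Reference promoters were at hand for 27 of the 31 genes (RefSeq, GRCm38.p6, the primary coordinates of mm10), and Nup85, Nup43, Seh1l and Nup35 had no entry. The sequences below are the 200 bases directly before the start site, 5′ to 3′ on the gene's strand, for genes that mark the range of the data. Nup54 and Nup214 had some of the strongest peaks in all libraries, and Pom121 had among the weakest. Ahctf1, with a promoter poor in GC, had a strong peak with its summit downstream of the start. Nup50 ranked higher and Nup107 lower in knockout, and Ndc1 and Nup210 had start-site peaks in wild type only. Capitals mark matches, on either strand, to any of the 6 motifs named after the sequences, and overlapping matches run together.
Nup54, chr5:92435200-92435399, minus strand: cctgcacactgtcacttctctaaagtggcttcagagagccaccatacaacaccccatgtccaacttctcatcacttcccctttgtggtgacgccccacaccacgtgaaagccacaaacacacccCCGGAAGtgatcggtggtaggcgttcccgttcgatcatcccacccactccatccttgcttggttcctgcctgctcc
Nup214, chr2:31974250-31974449, plus strand: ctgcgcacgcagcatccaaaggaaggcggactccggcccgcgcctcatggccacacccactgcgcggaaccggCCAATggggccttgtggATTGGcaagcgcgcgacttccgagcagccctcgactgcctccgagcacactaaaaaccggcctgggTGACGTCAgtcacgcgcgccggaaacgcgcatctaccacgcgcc
Ahctf1, chr1:179804016-179804215, minus strand: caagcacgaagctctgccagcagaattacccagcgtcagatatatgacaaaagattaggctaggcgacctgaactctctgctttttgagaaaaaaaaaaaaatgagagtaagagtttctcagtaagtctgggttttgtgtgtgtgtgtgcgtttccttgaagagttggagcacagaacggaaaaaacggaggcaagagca
Pom121, chr5:135394547-135394746, minus strand: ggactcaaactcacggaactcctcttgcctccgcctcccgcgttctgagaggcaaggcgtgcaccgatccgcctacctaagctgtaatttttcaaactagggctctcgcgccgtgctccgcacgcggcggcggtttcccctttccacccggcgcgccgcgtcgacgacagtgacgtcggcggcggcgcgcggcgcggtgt
Nup50, chr15:84923228-84923427, plus strand: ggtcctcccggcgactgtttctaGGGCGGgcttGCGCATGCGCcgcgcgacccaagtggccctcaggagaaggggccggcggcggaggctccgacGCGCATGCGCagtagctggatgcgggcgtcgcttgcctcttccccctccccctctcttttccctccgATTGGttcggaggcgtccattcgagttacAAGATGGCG
Nup107, chr10:117792706-117792905, minus strand: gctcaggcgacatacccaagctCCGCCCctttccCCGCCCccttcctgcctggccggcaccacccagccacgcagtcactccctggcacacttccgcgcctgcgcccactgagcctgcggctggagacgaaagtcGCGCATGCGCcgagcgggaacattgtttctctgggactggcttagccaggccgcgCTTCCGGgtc
Ndc1, chr4:107367847-107368046, plus strand: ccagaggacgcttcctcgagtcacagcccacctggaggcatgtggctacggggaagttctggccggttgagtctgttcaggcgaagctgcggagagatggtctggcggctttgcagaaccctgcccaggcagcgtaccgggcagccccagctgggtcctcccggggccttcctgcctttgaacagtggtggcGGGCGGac
Nup210, chr6:91116827-91117026, minus strand: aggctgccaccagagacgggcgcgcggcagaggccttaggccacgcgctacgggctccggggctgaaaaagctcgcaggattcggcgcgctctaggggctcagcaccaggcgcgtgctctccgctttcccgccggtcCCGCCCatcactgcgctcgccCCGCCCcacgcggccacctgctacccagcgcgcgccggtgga

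The motifs were searched in windows of 300 bases, from 250 before to 50 after the start, 1 window per gene. The palindromic NRF1 motif, spelled out by the capitals nearest the middle of the Nup107 sequence, was found in 3 of 27 windows (11.1%), those of Nup107, Nup50 and Nup62, against 1.36% of 17492 promoters and 2.62% of 5032 promoters of genes with a start-site peak in all 4 libraries. The YY1 motif AAGATGGCG was in 4 (14.8%), those of Nup188, Nup205, Nup50 and Nup88, against 1.98% and 4.15%. The ETS motif CCGGAAG was in 8 (29.6%, against 12.1% and 23.9%), the CRE motif TGACGTCA in 2 (7.41%, against 2.32% and 4.33%) and the SP motif GGGCGG in 20 (74.1%, against 46.8% and 72.0%). CCAAT, the NFY motif, was in 10 (37.0%, against 39.3% and 47.8%). Nup50 held 2 copies of the NRF1 motif in the printed stretch, 167 and 105 bases before its start, and a YY1 match that ends at the start itself. The start-site summits of Nup50, Ndc1 and Nup210 lay further upstream than the printed stretch. So did those of Nup107, except in wild-type replicate 2 (-134 bp). Those of Ahctf1 lay 94 to 174 bp downstream of the start, beyond its window. Nup107 combined SP, NRF1 and ETS matches, Nup214 held a CRE match 44 bases before its start, and Ahctf1 and Pom121 had no match in their windows. These are matches of letters and not measured binding, and the shares were not tested.

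Most of these promoters were rich in CpG. Median GC content was 63.7% in the 27 windows (lowest 45.3% in Ahctf1, highest 74.0% in Nup153), against 56.7% over all promoters and 62.0% over promoters with a peak in all 4 libraries. The median observed-over-expected CpG ratio was 0.896, against 0.583 and 0.818. Nup160 had the lowest ratio of the 27 (0.314), and it is also a gene without a peak at its annotated start. A start of another gene on the opposite strand lay within 1 kb for 6 of 27 (22.2%, against 9.61% of all genes with an entry). These pairs were Nup37 with Parpbp, Nup188 with Dolk, Nup62 with Atf5, Nup98 with Pgap2, Tpr with Odr4 and Nup88 with Rpain, and a peak between 2 such starts cannot be assigned to 1 of them.

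All 31 genes had a peak in at least 1 library and 25 (80.6%) had one in all 4, against 39.0% of all protein-coding genes. Peaks were found for 31 and 29 genes in wild-type replicates 1 and 2 and for 25 and 30 in knockout replicates 1 and 2. All protein-coding genes include those used only in other tissues. In lists nearer in function, 23 of 29 TREX and mRNA export adaptor genes (79.3%) and 27 of 30 Ran transport cycle genes (90.0%) had a peak in all 4. The peaks of the 31 genes were joined across libraries into 62 regions (an overlap of 1 bp sufficed), and 28 of these regions were present in all 4 libraries. Of the 62, 28 lay within 1 kb of a start site of the gene, 5 within 1 kb of an end of a gene whose start is not in the promoter table, 16 elsewhere inside the span and 13 beside it. Of the start-site regions 19 of 28 were present in all 4 libraries, and of those inside spans 3 of 16 were. Regions inside spans were also weaker. Their median percentiles were 33.4 and 55.9 in wild-type replicates 1 and 2 and 19.7 and 47.9 in knockout replicates 1 and 2. Start-site regions had medians of 84.6, 75.4, 69.7 and 79.04 in the same order of libraries. The medians inside spans rest on 15, 8, 4 and 8 regions. Whether regions inside spans were only under the threshold of the shorter lists was not tested. The same shares were not computed for regions of all genes, so these counts do not set the 31 genes apart. Of the 13 regions found in a single library, 10 were in wild-type replicate 1, the longest list.

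**Figure D1:**
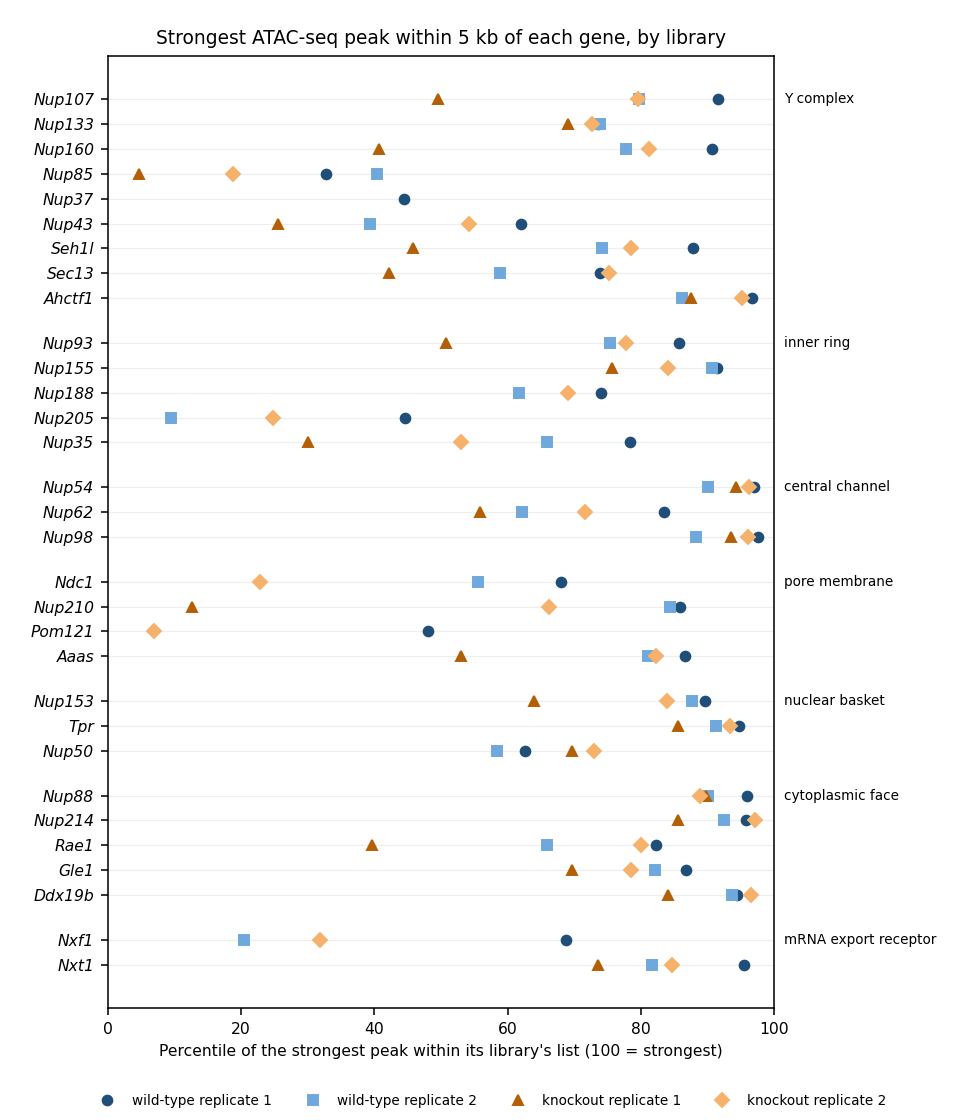
Percentile of the strongest peak within 5 kb of each gene in each of the 4 libraries (horizontal axis, 100 = strongest peak of that list), with genes grouped by role and a missing symbol meaning no peak. Nup54, Nup98, Nup214, Ddx19b and Ahctf1 sit at the right in every library, and knockout replicate 1, the shortest list, gives the lowest value for 20 of the 25 genes with 4 values.

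The summits sat just upstream of most annotated starts in both genotypes. For genes with a start-site peak, the median summit position relative to the start, negative upstream, was -74 and -77 bp in wild-type replicates 1 and 2 (n = 25 and 23 genes). It was -70.5 and -80.5 bp in knockout replicates 1 and 2 (n = 18 and 22). Over all genes the medians ran from -67 to -56 bp. Over the 21 genes with a peak near a start or gene end in all 4 libraries, the summits of the 4 libraries spanned a median of 32 bp, against 42 bp over all such genes. Gle1 was the tightest, with all summits within 2 bp. Tpr was the exception in position, with its summit 353 to 370 bp downstream of the start, and Ahctf1 and Aaas also had summits downstream of it. Median widths of these peaks were 286 and 241.5 bp in wild type and 214.5 and 270 bp in knockout, against 244, 214, 198 and 225 bp over all genes in the same order of libraries.

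**Figure D2:**
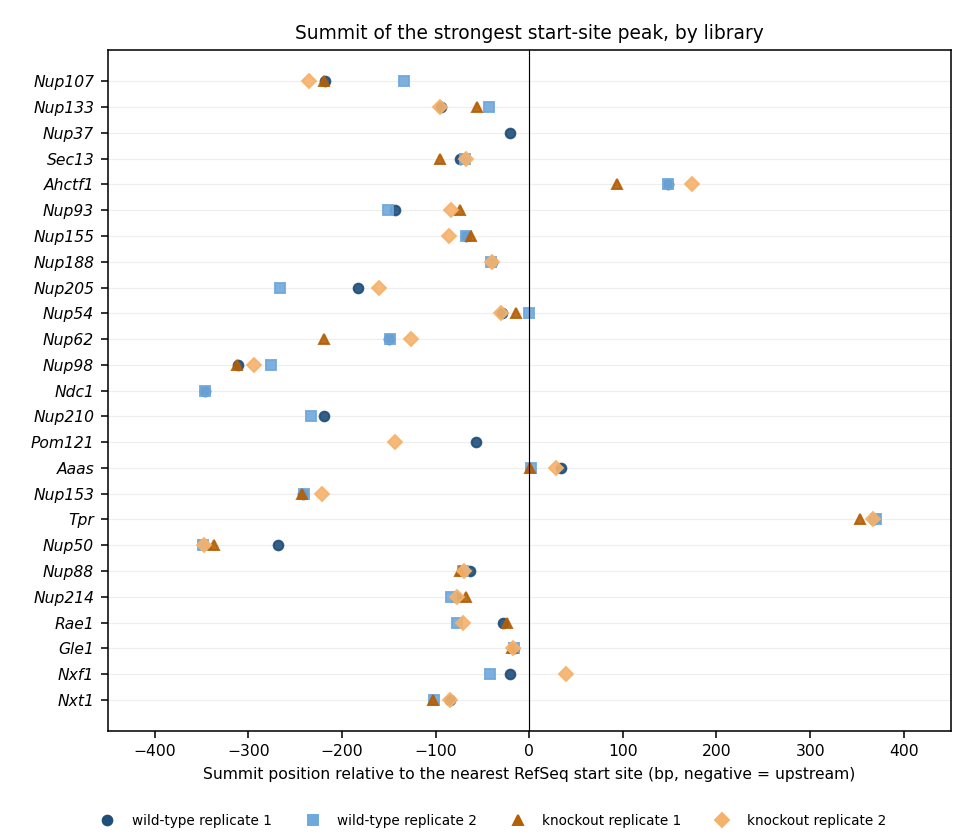
Distance in bp of the strongest start-site summit from the nearest RefSeq start (horizontal axis, negative = upstream), 1 symbol per library, for the 25 genes with a promoter entry and a start-site peak. Most symbols lie between -348 and 0 bp and the libraries of a gene lie close together, with Tpr and Ahctf1 to the right of the start.

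Within the Y complex, the outer ring scaffold, 8 of 9 genes had a peak in all 4 libraries. Ahctf1 (gene 226747), which encodes ELYS, the subunit that brings the Y complex to chromatin after mitosis, was the strongest. Its folds were 21.2 and 15.6 in wild-type and 11.8 and 16.8 in knockout libraries, at percentiles 96.6, 86.2, 87.6 and 95.2, so the genotypes overlapped. Nup107 (gene 103468, chromosome 10, 117750621-117792736), a core subunit of the Y stem, had folds of 14.2 and 11.2 in wild type and 6.69 and 9.84 in knockout. Its percentiles at equal length were 79.6 and 72.9 against 49.5 and 64.2, both knockout values lying below both wild-type values. In the deposited lists they were 91.6 and 79.7 against 49.5 and 79.6, so the replicate 2 values nearly met. A second region near Nup107, at the start of Slc35e3, had a fold of 14.3 in wild-type replicate 1 and 5.06 to 7.03 in the other libraries.

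The remaining Y complex genes ranged from strong to weak. Nup160, another subunit of the complex, had no peak at its annotated start. Its only region lay 2.11 kb inside the gene (chromosome 2, 90679135-90679433). Folds there were 20.1 and 15.1 in wild type and 7.14 and 12.9 in knockout. The percentiles at equal length did not overlap (77.3 and 70.4 against 40.7 and 67.0). In the deposited lists they did (90.7 and 77.8 against 40.7 and 81.15). Nup133, which joins neighbouring Y complexes, had percentiles of 73.5 and 73.9 in wild type and 69.0 and 72.7 in knockout. Its genotypes overlapped at equal length (35.7 and 65.1 against 69.0 and 52.2), so the order in the deposited lists moved with list length. Sec13 and Seh1l encode β-propeller subunits that also serve in other complexes. Sec13 overlapped between genotypes, with folds of 12.5 and 10.7 against 7.05 and 10.1. Seh1l, on chromosome 18, had its strongest peak at a gene end in 3 libraries and beside the gene in knockout replicate 2, so its equal-length percentiles (70.4 and 65.5 against 45.7 and 62.3) compare different regions. With the gene-end region alone it was still lower in both knockout libraries at equal length (70.4 and 65.5 against 45.7 and 57.7). In the deposited lists that region overlapped between genotypes (87.8 and 74.1 against 45.7 and 75.9).

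The weakest genes of the Y complex were Nup85, Nup37 and Nup43. Nup85, which carries Seh1l, had the lowest mean percentile of the 31 genes, with 32.8 and 40.3 in wild type and 4.74 and 18.7 in knockout. Both knockout values lay below both wild-type values, but the peak was weaker than the 13877 best of 2 lists and has no equal-length comparison. Nup37, which shares its start region with Parpbp, had a peak in wild-type replicate 1 alone, with a fold of 7.16 at percentile 44.5. Nup43 had a peak in every library, but not the same one. Its strongest peak lay at a gene end in knockout replicate 1 and beside the gene, within 1 kb of a start of Pcmt1 or Lats1, in the others. Its equal-length percentiles (7.51 and 19.1 against 25.6 and 19.8) did not overlap and compare different DNA. In the deposited lists its percentiles overlapped (61.9 and 39.3 against 25.6 and 54.2).

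Of the 5 inner ring genes, 3 had a peak in all 4 libraries. In the deposited lists 2 of these, Nup155 and Nup35, ranked lower in both knockout libraries (27.1% of all genes did), and at equal length all 3 did (26.2%). Nup155 overlapped once the median of its chromosome was subtracted, and 3 genes are too few to describe the ring. Nup155, which contacts the pore membrane, had folds of 19.4 and 18.7 in wild type and 10.3 and 12.6 in knockout, with equal-length percentiles of 79.3 and 87.5 against 75.6 and 72.1. Nup93, the scaffold that ties the ring to the central channel, had folds of 15.7 and 12.9 against 7.59 and 10.3, and percentiles of 65.2 and 67.2 against 50.8 and 61.0. Nup35, a small linker of the ring (gene 69482, chromosome 2, 80638812-80660071), showed the widest gap of the 3. Its region at a gene end (chromosome 2, 80638680-80638935) had folds of 15.7 and 12.9 in wild type and 7.03 and 8.45 in knockout, and equal-length percentiles of 47.4 and 54.5 against 30.1 and 17.6. The 4 pairs of 1 knockout and 1 wild-type library differed by -36.9 to -17.3 percentile points, while the median gene of chromosome 2 differed by -0.501.

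The large inner ring paralogs were not found in knockout replicate 1. Nup188 had start-site folds of 11.7 and 10.5 in wild type and 8.53 in knockout replicate 2, at percentiles 74.0, 61.7 and 69.1, so it was missing from the shortest list and of middle rank in the others. A second Nup188 region, 36.9 kb into the gene, showed the same presence. Nup205 was weaker, with folds of 7.18, 5.99 and 5.20 in those 3 libraries at percentiles 44.6, 9.49 and 24.7.

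Of the 3 central channel genes, Nup54 and Nup98 ranked near the top of every list. Nup54, a coiled-coil partner of Nup62 in the channel (gene 269113, chromosome 5, 92415540-92435259), had the highest mean percentile of the 31 genes. Its folds were 24.3 and 18.3 in wild type and 15.5 and 20.2 in knockout, and its equal-length percentiles were 92.6 and 86.8 against 94.2 and 93.3, higher in both knockout libraries by 0.681 to 7.39 points. Nup98, the FG nucleoporin that binds Rae1 and whose precursor also yields the Y complex subunit Nup96, had folds of 22.3 and 16.5 against 15.4 and 17.6, and its percentiles overlapped. Nup62 itself was weaker, with folds of 12.7 and 9.11 against 7.31 and 8.30, and overlapped at both list lengths.

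The pore membrane group held the widest gap between genotypes. Nup210 encodes gp210, a transmembrane nucleoporin whose level is known to vary between cell types and to rise in muscle and neuronal differentiation (gene 54563, chromosome 6, 91013067-91118322). Its strongest region lay 40.5 kb inside the gene (chromosome 6, 91076263-91076547), at percentiles 85.8 and 84.4 in wild type and 12.7 and 66.2 in knockout, with folds of 15.6 and 15.2 against 5.16 and 8.10. At equal length the percentiles were 65.6 and 79.2 against 12.7 and 40.9, the 4 pairs differed by -66.5 to -24.7 points, and the median gene of chromosome 6 differed by -0.144. The start-site region of Nup210 was present in both wild-type libraries only, with folds of 8.54 and 6.30, and so was a region 24.4 kb inside the gene, with folds of 12 and 7.52. These 3 regions were thus lower or missing in both knockout libraries. Whether these regions lie in exons or introns was not analysed here.

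**Figure D3:**
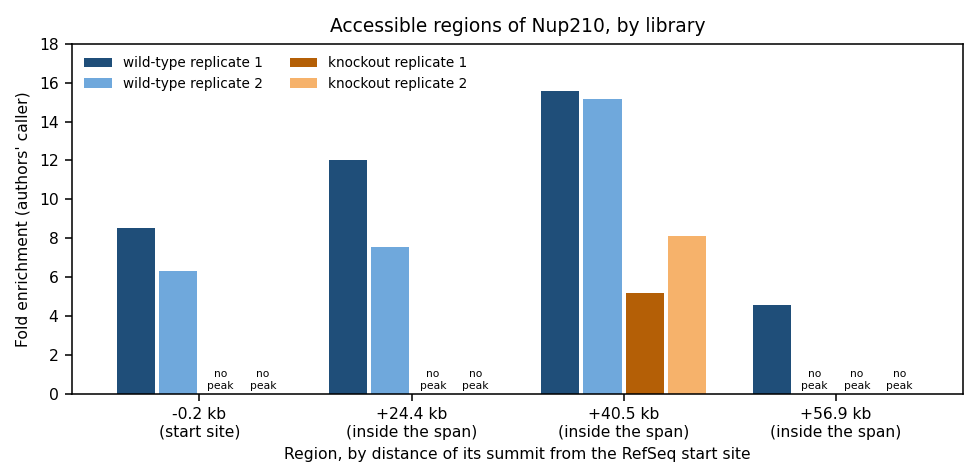
Deposited fold over local background of the 4 accessible regions of Nup210 (vertical axis) by the distance of the summit from the start site, 1 bar per library, with "no peak" where a list has none. The region at 40.5 kb has bars of 15.6 and 15.2 in wild type and 5.16 and 8.10 in knockout, and those at the start and at 24.4 kb have wild-type bars only.

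The other membrane genes were weaker or alike. Ndc1, the transmembrane anchor that other membrane subunits depend on, had a start-site peak in both wild-type libraries (folds 9.15 and 9.25, percentiles 68.0 and 55.5) and in neither knockout library. The knockout replicate 2 peak credited to Ndc1 lay at -4.29 kb from the start, with a fold of 4.83. Pom121, a membrane FG nucleoporin, had a start-site peak in wild-type replicate 1 (fold 7.92) and knockout replicate 2 (fold 4.33) alone, the longest lists. Aaas, which encodes aladin, a partner of Ndc1, had folds of 14.8 and 13.7 against 7.67 and 11, and overlapped. Start-site peaks in both wild-type and neither knockout libraries were thus found for 2 of 31 genes (6.45%), Ndc1 and Nup210, where 1.79% of all protein-coding genes had this pattern, and 0 had the opposite one (0.0366% of all genes). With all peaks within 5 kb counted, 0 genes had a peak in only the wild-type pair or only the knockout pair (2.28% and 0.132% of all genes). At equal length, Ndc1 alone kept it (3.23%, where 1.41% of all genes had it, and 0.439% the opposite), because the Nup210 start-site peak fell below the shorter lists. A count of 2 says little about the group.

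The nuclear basket held the only gene ranked higher in both knockout libraries at both list lengths. Nup50, a mobile basket nucleoporin that aids importin-dependent import (gene 18141, chromosome 15, 84923428-84942963), had percentiles of 62.7 and 58.3 in wild type and 69.7 and 73.0 in knockout. At equal length these were 9.27 and 44.4 against 69.7 and 52.7, so the wild-type libraries were far apart and the 4 pairs differed by 8.22 to 60.4 points. Its folds were closer, 8.48 and 9.60 against 9.64 and 9.90. The median gene of chromosome 15 moved the other way, by -3.50 points at equal length. Tpr, the filament protein of the basket, had 2 start-site regions in all 4 libraries, and the stronger had folds of 17.8 and 17.3 against 11 and 15.3 and overlapping percentiles. Nup153, which docks the basket to the ring, had folds of 16.5 and 16.6 against 9.56 and 13.7 and equal-length percentiles of 74.9 and 83.5 against 64.0 and 71.9. Its chromosome, 13, had a median gene difference of -8.75 points, close to the -11.3 of Nup153.

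All 5 genes of the cytoplasmic face had a peak in all 4 libraries. In the deposited lists 2 of them ranked lower in both knockout libraries (27.1% of all genes did). At equal length 0 were lower and 0 higher, where 26.2% and 17.2% of all genes were. Nup214 and Nup88, which form one complex, had strong start-site peaks. Nup214 had folds of 22.3 and 19.3 in wild type and 11.7 and 19.2 in knockout, and Nup88 had 21.7 and 17.9 against 13 and 13.3. Nup88 percentiles did not overlap in the deposited lists (95.9 and 90.1 against 89.8 and 88.8) but did at equal length (90.1 and 86.8 against 89.8 and 80.5). Gle1, the activator of the export helicase, went the same way, with percentiles of 86.8 and 82.1 against 69.7 and 78.5 and, at equal length, 68.0 and 76.1 against 69.7 and 62.4. Rae1, an mRNA export factor, had folds of 14.2 and 11.2 against 6.54 and 10.8 and overlapped. Ddx19b, the RNA helicase that releases mRNA from its carriers, had no peak within 1 kb of its own starts. The strong peak credited to it (folds 21.0 and 20.4 against 12.3 and 19.8) lay at -2.08 kb from the nearest start, within 1 kb of the start of Aars.

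The carrier subunits differed in strength. Nxt1, the small partner, had folds of 23.8 and 15.7 in wild type and 9.74 and 13.3 in knockout. Its equal-length percentiles, 89.0 and 75.6 against 73.5 and 73.1, did not overlap. In the deposited lists they did (95.5 and 81.7 against 73.5 and 84.6). Nxf1, the large subunit, had start-site folds of 10.7 and 6.88 in wild type and 5.53 in knockout replicate 2 and no peak in knockout replicate 1. Beyond wild-type replicate 1, where it stood at percentile 68.8, its start ranked in the lower part of the lists (20.4 and 24.5).

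Counted over the 25 genes with a peak in all 4 deposited lists, 9 (36.0%) ranked lower in both knockout libraries and 1 (4%) higher, against 27.1% and 3.21% of 8535 protein-coding genes. The 9 were Nup107, Nup133, Nup85, Nup155, Nup35, Nup210, Nup153, Nup88 and Gle1, and the 1 was Nup50. At equal length, 9 of 24 (37.5%) were lower and 3 (12.5%) higher, against 26.2% and 17.2% of 7720 genes. The 9 were Nup107, Nup160, Seh1l, Nup93, Nup155, Nup35, Nup210, Nup153 and Nxt1, and the 3 were Nup50, Nup54 and Nup43. With start-site peaks only, 8 of 21 were lower and 1 higher (27.3% and 1.39% of all genes), and at equal length 7 of 20 and 2 (26.3% and 14.9%). These shares are near those of all genes, and the counts are not a result about the group. They also varied with the library left out. Without wild-type replicate 2 or knockout replicate 2, 21 of 25 genes were lower in the deposited lists (76.9% and 73.1% of all genes). With wild-type replicate 1 or knockout replicate 1 left out, 4 were higher (25.0% and 18.8%). Non-overlap is easier to meet with 1 library fewer, so these counts do not compare directly with those of all 4 libraries. The genes lower at both list lengths were 5, namely Nup107, Nup153, Nup155, Nup210 and Nup35. For Nup107 the deposited percentiles of wild-type replicate 2 (79.7) and knockout replicate 2 (79.6) nearly met. The share of all genes lower at both list lengths was not computed. The median difference, knockout minus wild type, was -10.4 points over the 25 genes and -5.51 over all genes, and at equal length -3.36 and -1.15. Knockout replicate 1 gave the lowest of the 4 percentiles for 20 of 25 genes in the deposited lists (70.6% of all genes) and for 11 of 24 at equal length (36.3%).

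**Figure D4:**
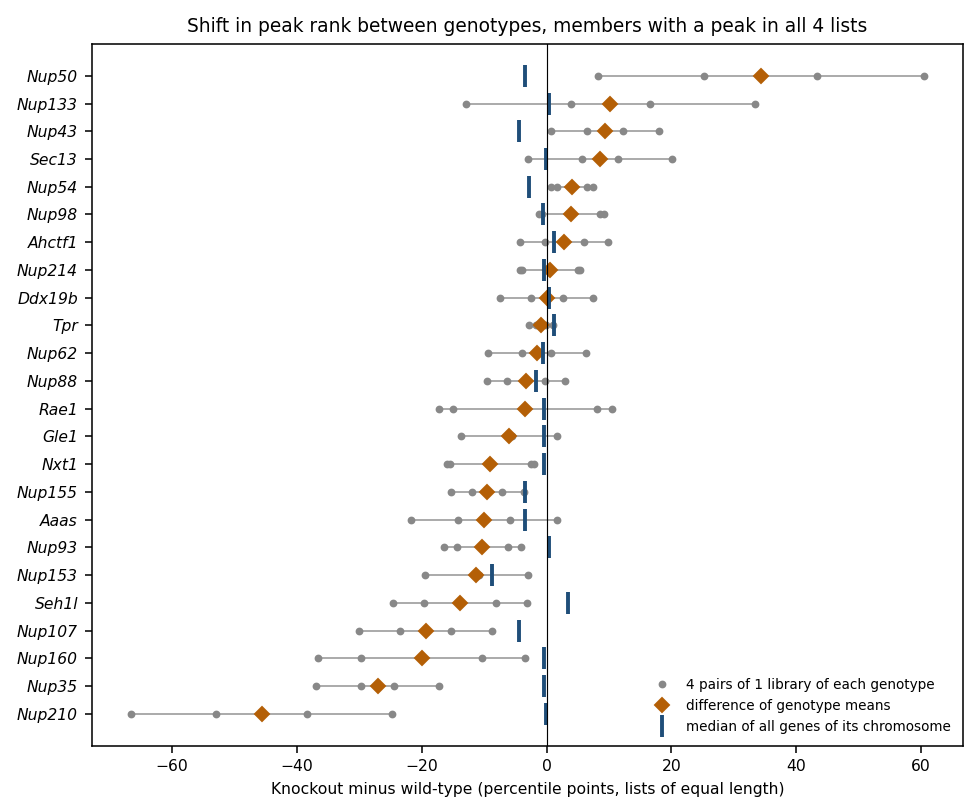
Knockout minus wild-type difference in the percentile of the strongest peak, lists of equal length (horizontal axis, percentile points), for the 24 genes with a peak in all 4 lists. Diamonds are differences of genotype means, grey points the 4 pairs of libraries and blue bars the median of all genes of the same chromosome, and Nup210 (-45.6) and Nup50 (34.3) lie at the ends.

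Ranks differed by chromosome between genotypes, with median equal-length differences over autosomes from -8.75 on chromosome 13 to 3.41 on chromosome 18. After the chromosome's median was subtracted in each library, 8 of 24 genes were lower and 3 higher at equal length, against 20.6% and 22% of all genes. In the deposited lists the counts were 7 and 4 of 25 (16.6% and 15.5%). Of the 9 genes lower at equal length, 7 remained (Nup107, Nup160, Nup210, Nup35, Nup93, Nxt1 and Seh1l), Nup153 and Nup155 overlapped, and Tpr was added. Nup50, Nup54 and Nup43 remained higher at equal length. In the deposited lists the 7 lower genes were Nup107, Nup160, Nup210, Nup35, Nup85, Nup93 and Seh1l. The 4 higher there were Ahctf1, Nup50, Nup54 and Nup98. What lies behind the chromosome shifts was not tested.

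None of the 31 genes overlapped a region of the authors' deposited differential lists, within 5 kb of the span. Of all protein-coding genes, 0.621% overlapped a knockout-enriched and 0.886% a wild-type-enriched region, so a count of 0 of 31 is near the background. That holds for Nup210 and Nup35 too. The nearest regions lay 6.91 kb from Nup188 (wild-type-enriched), 18.2 kb from Pom121 (knockout-enriched) and 55.0 kb from Aaas (wild-type-enriched).

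The TREX and adaptor list holds mostly genes that act on mRNA before it reaches the pore. Of its 23 genes with a peak in all 4 deposited lists, 9 (39.1%) were lower in knockout and 0 higher, against 27.1% and 3.21% of all genes. At equal length 5 of 20 (25%) were lower and 4 (20%) higher, against 26.2% and 17.2%. Those lower at both list lengths were Thoc1, a THO subunit, Chtop and Poldip3, both export adaptors, and Sarnp, a TREX component. Poldip3 had equal-length percentiles of 79.8 and 83.6 in wild type and 46.9 and 57.4 in knockout, a difference of -29.5 points. It alone of this and the Ran list had a region of the authors' differential lists within 5 kb, a wild-type-enriched one (0.886% of all genes had one). Chtop differed by -24.7, Thoc1 by -14.2 and Sarnp by -2.48 points. Thoc1, Chtop and Poldip3 remained lower at both list lengths after the chromosome's median was subtracted. Sarnp was then higher at equal length and overlapped in the deposited lists. The other lower genes were Cetn2, Mcm3ap, Ncbp2, Ncbp3 and Thoc6 in the deposited lists and Cetn3 at equal length. The 4 higher at equal length were Eif4a3, Srsf7 and Nup58 and Nup42, nucleoporin genes that were placed in this list and which the gene table holds under the older names Nupl1 and Nupl2.

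Of the Ran transport cycle genes, which power import and export of proteins, 4 of 27 (14.8%) were lower and 0 higher in the deposited lists, against 27.1% and 3.21% of all genes. At equal length 4 of 26 (15.4%) were lower and 2 (7.69%) higher, against 26.2% and 17.2%. Those lower in both were Rangap1, the Ran GTPase activator held at the pore by Ranbp2, Xpot, the tRNA exportin, and Ipo11, an importin. Rangap1 stood at equal-length percentiles of 99.2 and 98.8 in wild type and 97.1 and 98.3 in knockout, a difference of -1.29 points that was smaller than that of the median gene of its chromosome (-3.50). Xpot differed by -5.32 and Ipo11 by -13.1 points. With the chromosome's median subtracted, none of these 3 was lower at either list length. Rangap1 was then higher at equal length and Ipo11 in the deposited lists. The percentiles of Rangap1 itself were lower in knockout, and so near the top of a list they have little room to move. Ran was lower in the deposited lists only and Kpna1 at equal length only, and Ipo7 and Ranbp3 were higher at equal length. Kpna1 was higher at equal length once the chromosome's median was subtracted.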

How the data were processed

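Accessibility was measured in 2 wild-type and 2 Ranbp2 knockout libraries, grouped by their titles. The submitters' processing notes name build mm10 and cutadapt, Bowtie2, deepTools and MACS2, beside DiffBind 2.2.12 and DESeq2, without saying which step used which. The authors deposited 1 peak list per library and 2 lists of differential regions, whose settings no label or file header states. The deposited fold is a ratio over local background, the deposited −log10 values are the caller's p and q, and the deposited score restates q. Fold and q were used only to describe and rank peaks within a list. Peaks were assigned by summit with Python 3.11.15 and pandas 2.3.3. Gene spans and start sites came from RefSeq tables for GRCm38.p6, and ties in −log10 q shared a mean rank. The method was tried on simulated lists, all made from that of wild-type replicate 1 with small added noise and a rise of some peaks in knockout. They held no falls, no chromosome shifts and not the real spread between replicates. The trial therefore does not show how reliable the calls are here. Values in all libraries are printed for genes lacking a peak in some library, genes whose genotypes did not overlap, the 5 highest and 5 lowest by mean percentile and at least 1 of each role. The members and lists were chosen with earlier results of these data known. Of the listed symbols, 2 were matched by an older name. Alternatives were other windows, ranking by fold, a stricter q, equal list lengths, chromosome centring, libraries left out and a replicate block.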

Additional observations from a re-analysis of the deposited data

How the results depend on the processing

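The depth of the libraries is unknown, and list length limits every comparison of ranks. In the deposited lists 25 genes had a peak in all 4 libraries, and the median difference was -10.4 points. Of these, 9 were lower and 1 higher in knockout (27.1% and 3.21% of all genes). With peaks inside gene spans only, these counts were 7, 2 and 0, since most start-site summits lie just outside the span. Of all genes with such peaks in all 4 libraries, 25.0% were lower and 5.53% higher. The count of higher genes was 3 at equal length (17.2% of all genes) and 4 after subtracting the chromosome's median (15.5%). It was 3 with both (22.0%, median difference -2.05) and 2 at equal length with start-site peaks only (14.9%). The settings that combine equal length with another choice were chosen after seeing the data. With 1 library left out at a time, 9 to 21 genes were lower (21 without wild-type replicate 2 or knockout replicate 2), 1 to 4 were higher (4 without wild-type replicate 1 or knockout replicate 1), 25 to 29 had all values and the median ran from -17.0 to -2.32. At equal length, leaving out wild-type replicate 1 or 2 or knockout replicate 1 or 2 gave 6, 5, 7 and 4 higher genes (31.4%, 27.9%, 32.9% and 29.5% of all genes) and 12, 13, 11 and 14 lower (38.9%, 40.2%, 39.2% and 46.4%), and medians from -4.75 to -2.11 (all genes -1.71 to -0.353). Non-overlap is easier to meet with a library left out, so those counts do not compare directly with the others. A window of 1 kb, start-site peaks only, ranking by fold and a −log10 q of at least 5 left each count within 1.5 times. The median was negative in each setting that gave one, as was that of all genes except after subtracting the chromosome's median (1.61 as deposited and 0.0176 at equal length). With the replicate number as a block, 9 genes were lower and 1 higher within both pairs (29.2% and 4.05% of all genes), with a median of -10.4. The numbers are not stated to mark a shared culture. Deviations of same-numbered libraries correlated at -0.237 over genes (0.0514 at equal length), and with crossed numbers, added after seeing the data, 18 were lower and 1 higher (60.9% and 8.51% of all genes). No gene overlapped a differential region within 1 kb or 0 kb either.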
